A study of Mus musculus with 6 samples.

Results

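The genes described here are 42 components of the DNA replication machinery, measured by RNA sequencing in whole mouse testes at postnatal day 4. They were taken by symbol from the deposited gene count table: all 42 were found among its 54232 genes, and all 42 passed the filter on low counts. The study compared 3 samples labelled as conditional knockouts of Dis3l2 (cKO) with 3 labelled Dis3l2 wild type (WT), all of the strain given as B6D2F1 and of the same age. Dis3l2 encodes an exoribonuclease that degrades RNAs with an oligouridine tail. The deleted exons, the Cre driver and whether each sample was a different animal are not given in the sources used here, so p-values rest on the spread of these libraries alone, which may partly be technical. Over the whole gene, Dis3l2 had 30.6, 31.0 and 33.6 CPM (counts scaled to a common library size) in cKO testes, against 32.8, 31.0 and 32.1 CPM in WT testes, and such a count does not check the genotype labels. The libraries held 26126694 to 35390560 counts in cKO testes and 35750784 to 43265614 in WT testes.

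Before S phase the origin recognition complex (ORC), with CDC6 and CDT1, loads the MCM2 to MCM7 ring onto origins, which licenses them. In S phase CDC45 and GINS join the ring and turn it into the active helicase, the polymerases copy both strands behind the sliding clamp PCNA, and ribonucleotide reductase and thymidylate synthase supply nucleotides. Many of these genes are transcribed as cells enter the cycle, so that in a tissue their transcripts mark dividing cells. In the testis shortly after birth Sertoli cells divide, and germ cells resume division as they become spermatogonia. A whole testis holds both, and in such samples fewer cells of a type and less RNA per cell cannot be told apart.

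Transcripts of the replication machinery were lower in cKO testes or did not pass the test. Of the 42 genes 11 fell, 0 rose and 31 did not pass (edgeR quasi-likelihood test, adjusted p under 0.05 over 20153 genes). Over all genes tested, 4.94% were called lower and 3.4% higher, and among the 9304 genes with a mean at or above that of the least abundant member (14.19 CPM), a limit chosen after the data were seen, 7.13% were called lower. The count of 0 higher was also 0 in DESeq2 and limma-voom, and 1 member, Pold2, was higher at an unadjusted p under 0.05, against 20 lower (11.3% and 12.1% of all genes). Over the 42 members the median log2 fold change (cKO over WT) was -0.15, against 0.0096 over all genes tested. Values were below 0 in 35 members, against 48.3% of all genes tested and 49.4% of those at or above 14.19 CPM. The changes were small: the 11 genes that fell had fold changes of -0.78 to -0.19. In 19 members, all 11 that fell among them, every cKO library was below every WT library, and in 2 every cKO library was above. Over all genes 14.6% and 13.6% were separated in these directions.

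The count of calls rests on single libraries. It was 4 without WT replicate 1, 4 without WT replicate 2, 7 without WT replicate 3, 8 without cKO replicate 2, 11 without cKO replicate 3 and 14 without cKO replicate 1, while the number called over all genes was 759, 623, 837, 801, 1475 and 3375. Orc6, Mcm6 and Pole kept their calls in all 14 alternatives. In 28 of the 42 members cKO replicate 1 was the lowest of the 3 cKO libraries. It was the shallowest library, but CPM are scaled for depth, and the share over all genes was not counted. Interstitial stroma markers summed to 11530 CPM in it, against 8517 and 8584 CPM in cKO replicates 2 and 3. Sertoli cell markers summed to 4048 CPM, against 4801 and 4951 CPM, and macrophage markers to 109.6 CPM, against 108 and 106.8 CPM. What set this library apart was not tested. The summed level of the members was 3115 CPM in cKO replicate 1, 3398 and 3354 CPM in cKO replicates 2 and 3, and 3638 to 3699 CPM in the WT libraries. Without cKO replicate 1 the median of the members was -0.13.

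**Figure D1:**
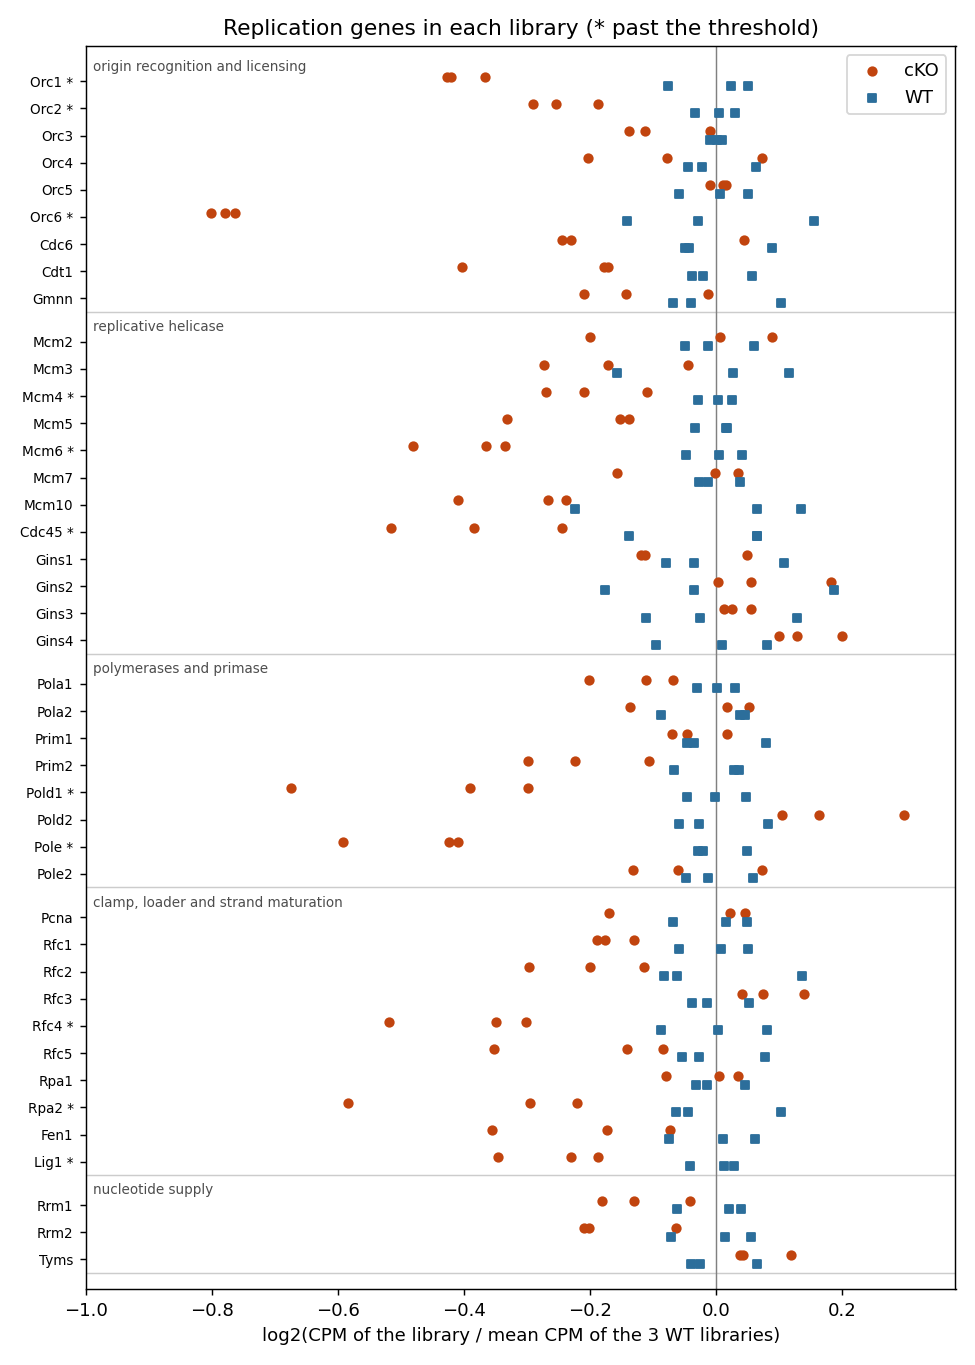
Each row is a replication gene, grouped by role, and each point a library: the log2 ratio of its CPM to the mean CPM of the 3 WT libraries (cKO circles above, WT squares below). The 11 genes with an asterisk passed the test, and in each of them the 3 cKO points lie to the left of the 3 WT points.

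Most markers of germ cells were lower in cKO testes too, while 4.94% of all genes tested were called lower and 3.4% higher. Of 18 germ cell markers 14 fell and 0 rose, with a median log2 fold change of -0.63, and their summed level was 905 to 982 CPM in cKO testes and 1570 to 1646 CPM in WT testes. Tex15, a germ cell gene in the chromosome 8 segment described with Orc6, fell by 1.21 on the log2 scale, and Ddx4, the germ cell RNA helicase, fell by 1.05. Stk31, another germ cell gene, fell by 1.03 and Dazl, a germ cell RNA-binding protein gene, fell by 0.76. Of 12 Sertoli cell markers 1, Clu, rose and 0 fell, with a median of 0.18. Their summed level was 4048 to 4951 CPM in cKO testes and 3848 to 3968 CPM in WT testes. Clu alone made up 2004 to 2313 CPM of it in cKO testes and 1759.5 to 1855 CPM in WT testes. At an unadjusted p under 0.05 in edgeR there were 6 of the 12, against 12.1% of all genes lower and 11.3% higher. The call of Clu was lost without cKO replicate 2, WT replicate 1 or WT replicate 3 (edgeR adjusted p up to 0.0621). No marker of either list was at 0. The part of the cell makeup in the fall of the replication genes was not tested.

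Many replication genes carry E2F sites, at which E2F factors and the retinoblastoma family set their transcription through the cell cycle. RefSeq promoter windows (GRCm38.p6, 250 bases before to 50 after the start) were matched by symbol for 34 of the 42 members, and not for Gins1, Gins2, Gins4, Gmnn, Mcm4, Pole, Prim2 and Rfc2. An E2F-type match was any of TTTCCCGC, TTTCGCGC, TTTGCCGC and TTTGGCGC on either strand, where matches may overlap. It was found for 14 of the 34 members, or 41.2% (95% Wilson interval 26.4 to 57.8%), and for 2.6% of 27025 genes with a window, or 3.29% of those that are protein-coding. CCAAT occurred in 64.7% of members, 41.1% of all genes and 42.3% of the protein-coding ones. GGGCGG, the GC box, occurred in 73.5%, 38.2% and 49.2% of these sets, and a TTTGAA or TTCGAA element in 20.6%, 21.7% and 20.2%. Among the members that fell, 4 of 9 with a window had an E2F-type match, and among those that did not pass 10 of 25 did. Matched and unmatched promoters thus occur both among the genes that fell and among those that did not pass. The windows of Mcm6 and Orc1, which fell and hold matches, of Orc6, which fell and holds none, and the first of 2 windows of Mcm7, which holds 2 and did not pass, show this, with the matches in capitals.
Mcm6 (chr1:128359656-128359955, minus strand): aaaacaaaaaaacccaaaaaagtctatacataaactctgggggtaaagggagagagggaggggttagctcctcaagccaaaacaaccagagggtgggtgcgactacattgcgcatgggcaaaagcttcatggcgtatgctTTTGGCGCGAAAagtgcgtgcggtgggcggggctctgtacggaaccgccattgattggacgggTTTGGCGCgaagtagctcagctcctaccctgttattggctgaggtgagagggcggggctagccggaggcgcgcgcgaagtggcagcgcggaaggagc
Orc1 (chr4:108579204-108579503, plus strand): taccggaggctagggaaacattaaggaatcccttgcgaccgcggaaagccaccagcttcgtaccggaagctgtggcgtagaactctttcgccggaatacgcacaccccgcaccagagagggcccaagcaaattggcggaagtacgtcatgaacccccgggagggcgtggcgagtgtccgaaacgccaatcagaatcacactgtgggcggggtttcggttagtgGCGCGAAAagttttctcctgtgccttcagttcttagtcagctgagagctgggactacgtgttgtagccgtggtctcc
Orc6 (chr8:85299382-85299681, plus strand): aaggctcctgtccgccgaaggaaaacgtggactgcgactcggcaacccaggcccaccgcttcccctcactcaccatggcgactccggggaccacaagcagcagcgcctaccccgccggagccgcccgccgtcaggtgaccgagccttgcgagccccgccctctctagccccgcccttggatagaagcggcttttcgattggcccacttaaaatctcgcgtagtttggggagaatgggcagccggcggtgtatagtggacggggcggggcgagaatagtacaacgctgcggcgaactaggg
Mcm7 (chr5:138171834-138172133, minus strand): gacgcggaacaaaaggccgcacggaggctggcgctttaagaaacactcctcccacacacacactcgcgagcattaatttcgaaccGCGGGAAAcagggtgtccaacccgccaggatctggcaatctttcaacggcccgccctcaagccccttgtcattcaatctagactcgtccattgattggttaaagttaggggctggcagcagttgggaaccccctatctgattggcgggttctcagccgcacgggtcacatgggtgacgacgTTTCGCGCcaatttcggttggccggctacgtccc

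With the start site counted as 0, the first bases of the matches lay at -110, -106 and -47 in Mcm6, where the first 2 overlap, at -27 in Orc1, and at -165 and 16 in Mcm7. A match describes these letters and not a bound site.

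Of the 9 origin recognition and licensing genes, 3 fell and 0 rose (4.94% and 3.4% of all genes), and 6 did not pass. Their median log2 fold change was -0.14, or -0.24 without cKO replicate 3, and all 3 that fell encode ORC subunits. Orc6 encodes the smallest subunit of the complex (chromosome 8, 85299632 to 85308278, GRCm38, plus strand). It had 27.0, 27.7 and 27.4 CPM in cKO testes, against 52.4, 46.0 and 42.6 CPM in WT testes. The groups were far apart, and the 3 cKO libraries were closer to each other than the WT libraries were. The log2 fold change was -0.78 (SE 0.08, edgeR adjusted p = 0.000144), the largest fall of the 42 members, and the adjusted p was at most 0.00266 in the alternatives. Orc6 and Mcm5 lie on chromosome 8 between 30 and 95 Mb. The sample labels do not give these bounds, which may have been set with these same data known, so the shares inside them are description only. Of the 508 genes tested there 14.2% were called lower and 6.3% higher, against 4.7% and 3.32% of the 19645 genes elsewhere, and the part of this segment in the fall of Orc6 was not tested.

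Orc1, an ATPase subunit whose level rises and falls with the cell cycle, fell as well. It had 13.0, 13.5 and 13.0 CPM in cKO testes, against 17.7, 18.03 and 16.5 CPM in WT testes, without overlap (log2 fold change -0.40, SE 0.09, edgeR adjusted p = 0.0144). Its call was lost without cKO replicate 2, WT replicate 1 or WT replicate 2 (adjusted p = 0.0544, 0.0677 and 0.0905). Orc2, a core subunit, had 49.8, 53.4 and 51.1 CPM in cKO testes, against 62.2, 61.1 and 59.5 CPM in WT testes. The groups did not overlap (log2 fold change -0.24, SE 0.06, edgeR adjusted p = 0.0257), but leaving out any library except cKO replicate 1 ended the call (adjusted p up to 0.128). The core subunit genes Orc3 (-0.087, 95% interval -0.22 to 0.043), Orc4 (-0.067, -0.24 to 0.11) and Orc5 (0.0056, -0.15 to 0.16) did not pass.

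The subunits thus differed among themselves. Of the summed level of the 6 ORC genes per length (RPKM, CPM per kilobase of exons), Orc6 made up 23.0, 23.8 and 23.7% in cKO testes, against 34.3, 31.2 and 30.2% in WT testes. In CPM, Orc6 stood at 0.974 to 0.989 times Orc5 in cKO testes and at 1.53 to 1.96 times in WT testes. These ratios were chosen after the values were seen and are given with no test.

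The loading factors did not pass in the edgeR fit reported here. Cdt1, which brings the MCM ring to ORC, had 39.8, 46.6 and 46.8 CPM in cKO testes, against 51.3, 52.0 and 54.8 CPM in WT testes. These groups did not overlap (log2 fold change -0.24, SE 0.07, adjusted p = 0.0646 in edgeR), and the gene passed in 5 of 14 alternatives, DESeq2 (0.030) and 4 edgeR settings (0.0348 to 0.0457). Cdc6, the ATPase that acts with CDT1, had a log2 fold change of -0.14 (95% interval -0.33 to 0.058) and overlapping groups. Gmnn encodes geminin, the inhibitor of CDT1, and had the highest RPKM of this role. It had 31.7, 34.7 and 30.3 CPM in cKO testes, against 34.1, 37.6 and 33.4 CPM in WT testes, with overlap (log2 fold change -0.12, 95% interval -0.29 to 0.052).

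**Figure D2:**
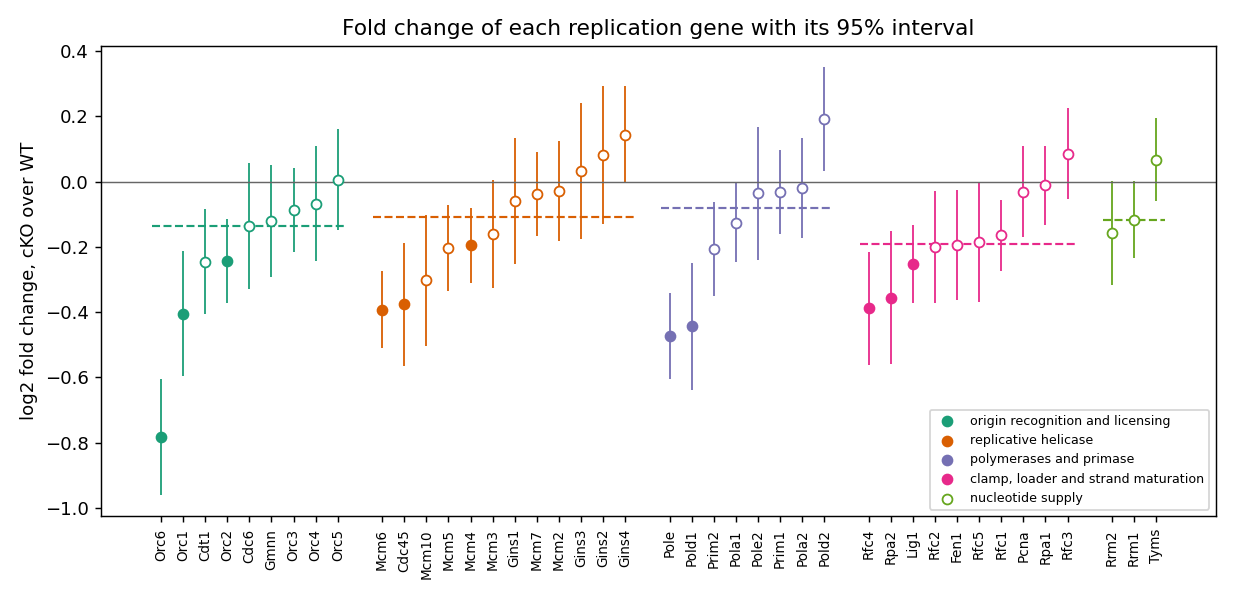
Points give each replication gene's log2 fold change (cKO over WT), bars its 95% interval from the edgeR fit, ordered within each role, with filled points for genes past the threshold and dashed lines at the median of each role. Orc6 stands lowest at -0.78 and Pold2 highest at 0.19, and filled points occur in every role but nucleotide supply, which holds 3 genes.

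Of the 12 helicase genes 3 fell and 0 rose (4.94% and 3.4% of all genes tested), and 9 did not pass. Their median was -0.11, or -0.059 without Mcm5 of the chromosome 8 segment. Mcm6, a subunit of the ring (chromosome 1, 128331590 to 128359664, minus strand), had 178, 197 and 193 CPM in cKO testes, against 256, 249.6 and 241 CPM in WT testes. The highest cKO library was well below the lowest WT library (log2 fold change -0.39, SE 0.05, edgeR adjusted p = 0.000961, at most 0.0134 in the alternatives). Mcm4, the ring subunit with the highest RPKM, had 242.5, 271 and 253 CPM in cKO testes, against 293, 287 and 298 CPM in WT testes. These groups did not overlap either, but lay close (log2 fold change -0.19, SE 0.05, adjusted p = 0.0424 in edgeR), and the call was lost without cKO replicate 3 or any WT library (adjusted p from 0.0785 to 0.17).

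The other 4 subunits of the ring did not pass. Mcm5 had 113, 128 and 129.5 CPM in cKO testes, against 139, 144 and 144 CPM in WT testes. The groups were apart (log2 fold change -0.20, SE 0.06, adjusted p = 0.0581 in edgeR), and the gene passed in 9 of 14 alternatives, DESeq2 (0.0254), limma-voom (0.0495) and the robust fit (0.0445) among them. Mcm3 was at -0.16 (95% interval -0.32 to 0.0047), Mcm7 at -0.038 (-0.17 to 0.089) and Mcm2 at -0.029 (-0.18 to 0.12), each with overlapping groups. The values of Mcm7 and Mcm2 were 0.014 and 0.046 without cKO replicate 1. Mcm7 has a near-identical processed pseudogene, and under the counting defaults reads that map to both are not counted.

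The 6 ring subunits form 1 complex in equal numbers, while their transcripts differed in level. RPKM means ran, in cKO and WT testes, from 26.5 and 27.1 for Mcm2 to 71.2 and 81.5 for Mcm4. Mcm6 made up 16.1, 15.7 and 15.8% of the summed RPKM of the ring genes in cKO testes and 18.6, 18.4 and 17.9% in WT testes. The share of Mcm7 was 15.1, 14.8 and 15.6% in cKO testes and 13.3, 13.6 and 14.2% in WT testes, on the other side. Shares are relative, so a lower share of 1 gene raises the rest, and no test was run on them.

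**Figure D3:**
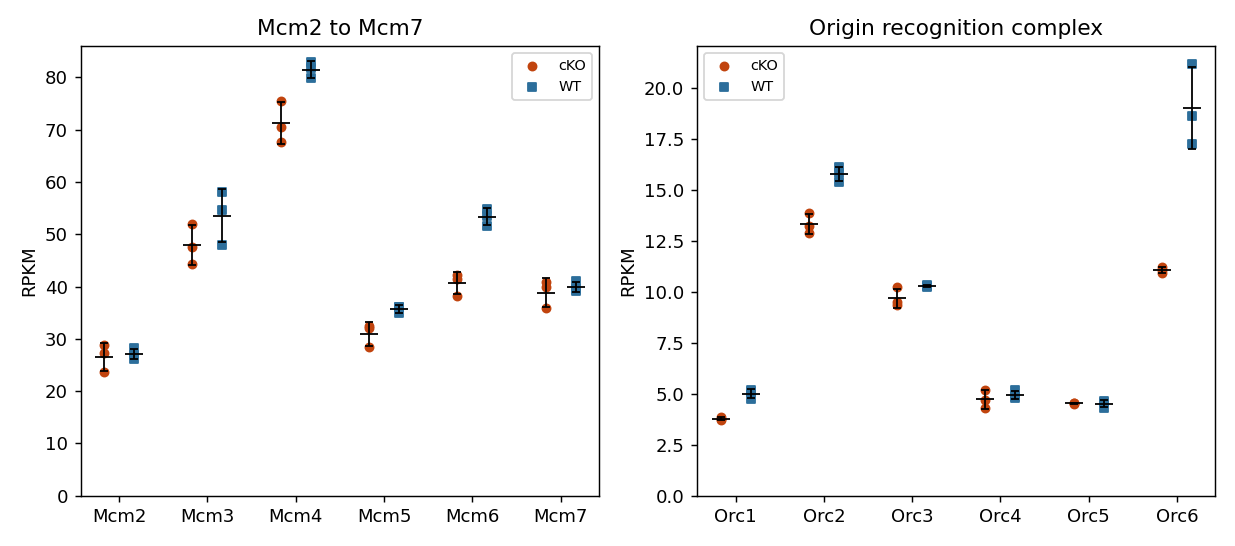
RPKM of the MCM ring genes (left) and the ORC genes (right) in each library, with cKO circles left of WT squares and black bars for the mean and SD of 3 libraries. Mcm6 and Orc6 show cKO points well below their WT points, while those of Mcm2, Mcm7, Orc4 and Orc5 overlap.

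Cdc45, which joins the ring to form the active helicase, had 28.7, 34.6 and 31.5 CPM in cKO testes, against 37.3, 42.9 and 42.9 CPM in WT testes. The groups did not overlap (log2 fold change -0.38, SE 0.09, adjusted p = 0.0193 in edgeR), and the call was lost without WT replicate 2 (0.125) or WT replicate 3 (0.101). Mcm10, needed for helicase activation, had 34.6, 39.0 and 38.2 CPM in cKO testes, against 50.4, 48.1 and 39.4 CPM in WT testes, where the nearest libraries almost met. Its log2 fold change of -0.30 (SE 0.09, edgeR adjusted p = 0.0666) passed in 5 of 14 alternatives, DESeq2 (0.022) among them. The 4 genes of GINS, the other helicase partner, did not pass, and 3 had values above 0. Gins4 had 49.0, 51.4 and 48.0 CPM in cKO testes, against 41.9, 45.1 and 47.3 CPM in WT testes, with every cKO library higher (log2 fold change 0.14, 95% interval -0.0036 to 0.29). Gins1 was at -0.059, Gins2 at 0.083 and Gins3 at 0.032, and each of their intervals holds 0.

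Of the 8 polymerase and primase genes 2 fell and 0 rose (4.94% and 3.4% of all genes tested), and 6 did not pass. The median of the 8 was -0.081, or -0.13 without cKO replicate 2. Both that fell encode a catalytic subunit. Pole, of the leading-strand polymerase epsilon (chromosome 5, 110286306 to 110337474, plus strand), had 92.5, 104 and 105 CPM in cKO testes, against 137, 137 and 144 CPM in WT testes. All cKO libraries were far below the WT libraries (log2 fold change -0.47, SE 0.06, edgeR adjusted p = 0.000599, at most 0.00773 in the alternatives). Pold1, of the lagging-strand polymerase delta (chromosome 7, 44532746 to 44548849, minus strand), had 30.4, 39.5 and 37.0 CPM in cKO testes, against 50.1, 47.0 and 48.5 CPM in WT testes. The groups did not overlap, and cKO replicate 1 was the lowest (log2 fold change -0.44, SE 0.09, adjusted p = 0.00949 in edgeR, and 0.0653 without WT replicate 1).

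Their accessory subunit genes among the 42, Pold2 and Pole2, did not pass. Pold2, the accessory subunit of polymerase delta and the gene with the highest RPKM of this role in both groups, had 46.0, 44.2 and 50.5 CPM in cKO testes, against 43.5, 40.3 and 39.4 CPM in WT testes. Every cKO library was above every WT library (log2 fold change 0.19, SE 0.07, 95% interval 0.033 to 0.35, edgeR adjusted p = 0.134). In CPM, Pold1 stood at 0.661, 0.893 and 0.733 times Pold2 in cKO testes and at 1.15, 1.17 and 1.23 times in WT testes. Pole2, the accessory subunit of polymerase epsilon, was at -0.037 (95% interval -0.24 to 0.17). Pole stood at 6.26, 6.40 and 7.45 times Pole2 in cKO testes and at 8.99, 9.16 and 8.97 times in WT testes. Both pairs were chosen after their values were seen, and no test was run on the ratios.

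The genes of polymerase alpha and primase, which start each new strand, did not pass. Prim2, the large primase subunit, had 54.2, 57.1 and 62.0 CPM in cKO testes, against 68.0, 68.4 and 63.7 CPM in WT testes. The groups did not overlap (log2 fold change -0.21, 95% interval -0.35 to -0.063, edgeR adjusted p = 0.0779, and under 0.05 in 2 of 14 alternatives), while those of its partner Prim1 did (-0.032, -0.16 to 0.097). The catalytic subunit gene Pola1 was at -0.13 (-0.25 to -0.0058) and Pola2 at -0.019 (-0.17 to 0.13).

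Of the 10 genes of the clamp, its loader, single-strand binding and strand maturation, 3 fell and 0 rose. Over all genes tested 4.94% were called lower and 3.4% higher. The other 7 of the role did not pass, and the median of the 10 was -0.19. Pcna, the sliding clamp and the gene with the highest RPKM of this role, had 159, 182 and 185 CPM in cKO testes, against 171, 181 and 185 CPM in WT testes. The groups overlapped (log2 fold change -0.031, 95% interval -0.17 to 0.11), and the value was 0.031 without cKO replicate 1. Pcna and Rfc5 have near-identical processed pseudogenes, with the same limit as for Mcm7. Of the clamp loader, Rfc4 had 30.5, 31.5 and 27.1 CPM in cKO testes, against 41.1, 39.0 and 36.6 CPM in WT testes. These did not overlap (log2 fold change -0.39, SE 0.08, adjusted p = 0.0108 in edgeR), and the call was lost without WT replicate 1 (0.0714) or WT replicate 2 (0.0671). Rfc1 (-0.16, edgeR adjusted p = 0.066), Rfc2 (-0.20) and Rfc5 (-0.19) were below 0 without overlap and did not pass, and Rfc3 was at 0.085. Rfc1 passed in 3 of 14 alternatives, which were DESeq2 (0.0382), library size alone as the scaling (0.0377) and leaving out cKO replicate 1 (0.0313).

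Rpa2, a subunit of the single-strand binding protein RPA, had 28.4, 34.7 and 36.6 CPM in cKO testes, against 41.3, 45.7 and 40.8 CPM in WT testes. The groups did not overlap (log2 fold change -0.36, SE 0.09, adjusted p = 0.0355 in edgeR), and the call was lost without cKO replicate 2 or any WT library (adjusted p from 0.0876 to 0.194). Rpa1, the large subunit, was at -0.012 (95% interval -0.13 to 0.11). Lig1, the ligase that seals Okazaki fragments (chromosome 7, 13277283 to 13311433, plus strand), had 139, 155 and 150.2 CPM in cKO testes, against 171, 179.6 and 178 CPM in WT testes. All cKO libraries were lower (log2 fold change -0.25, SE 0.06, adjusted p = 0.0152 in edgeR), and the call was lost without WT replicate 1, 2 or 3 (0.0501, 0.107 and 0.0823). Fen1, the nuclease that trims the fragments before ligation, did not pass (-0.19, 95% interval -0.36 to -0.027), with the highest cKO library level with the lowest WT library.

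None of the 3 nucleotide supply genes passed in edgeR, DESeq2 or limma-voom, and 0 had an unadjusted p under 0.05 in edgeR. Rrm1 and Rrm2 lay just above that limit (edgeR unadjusted p = 0.0509 and 0.051). With 4.94% of all genes tested called lower and 3.4% higher, 0 of 3 genes says little about the role. The median of the role was -0.12, against -0.15 over the 42 members. Rrm1, the large subunit of ribonucleotide reductase and the most abundant of the 3 per length, had 239.5, 264 and 248 CPM in cKO testes, against 279, 275 and 260.15 CPM in WT testes, with overlap (log2 fold change -0.12, SE 0.05, edgeR adjusted p = 0.217). Rrm2, the small subunit made in S phase, had 32.0, 35.2 and 31.8 CPM in cKO testes, against 37.1, 38.2 and 35.0 CPM in WT testes. One cKO library lay between the WT libraries (log2 fold change -0.16, SE 0.07, edgeR adjusted p = 0.217). Tyms, thymidylate synthase, was at 0.067 (95% interval -0.060 to 0.19). The roles overlapped in their fold changes, and no difference between roles was tested.

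Genes outside the 42 that serve replication were counted from lists chosen with earlier results of these data known. Over all genes tested, 4.94% were called lower and 3.4% higher. Of 30 other origin and fork genes 6 fell and 0 rose, and 24 did not pass (median -0.091). Pold3, another subunit of polymerase delta, averaged 81.6 ± 2.5 CPM in cKO testes and 107.8 ± 4.7 CPM in WT testes (SD, n = 3 each; log2 fold change -0.40, edgeR adjusted p = 0.0011), and its call held in 14 of 14 alternatives. The checkpoint mediator gene Clspn (-0.28), the kinase activator gene Dbf4 (-0.27) and the fork protein gene Wdhd1 (-0.26) fell too, and none of these 3 calls held on leaving out WT replicate 2 (edgeR adjusted p = 0.0513, 0.0793 and 0.133), Dbf4 also without WT replicate 1 and Wdhd1 without cKO replicate 2, WT replicate 1 or WT replicate 3.

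Of 15 genes of fork chromatin assembly 4 fell and 0 rose (4.94% and 3.4% of all genes), with a median of -0.15. They were Hells (-0.26), Tonsl (-0.37), Uhrf1 (-0.26) and the histone chaperone gene Nasp (-0.17). Hells and Tonsl lost their calls without WT replicate 1 or 2, Tonsl also without WT replicate 3, and Uhrf1 and Nasp without any WT library or cKO replicate 2, Nasp also without cKO replicate 3 and with no filter on low counts. The highest adjusted p were 0.0789, 0.107, 0.166 and 0.177.

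Of 21 other nucleotide synthesis genes 6 fell and 1 rose (4.94% and 3.4% of all genes tested), with a median of -0.10. Of the 3 supply genes among the 42, 0 passed, and so few genes allow no comparison with these counts. Dctd, deoxycytidylate deaminase, averaged 20.1 ± 1.7 CPM in cKO testes and 48.6 ± 2.3 CPM in WT testes (SD, n = 3 each; log2 fold change -1.27, edgeR adjusted p = 1.7e-06), and it lies in the chromosome 8 segment that also holds Orc6. The salvage kinase gene Dck (-0.49) and the cytidine triphosphate synthase gene Ctps (-0.50) fell, and their calls, like that of Dctd, held in 14 of 14 alternatives. The folate enzyme gene Shmt1 (-0.40) lost its call without WT replicate 2 or 3 (adjusted p up to 0.0893). The gene that rose was Dtymk, thymidylate kinase (0.23), named because it was the only one to rise. It lost its call without cKO replicate 2, any WT library or the filter on low counts (adjusted p up to 0.118).

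Regulators of S phase and mitotic genes had fewer calls, with 4.545% and 10% called lower. Over all genes tested the share was 4.94%, and it was 7.13% among those at or above the lowest member mean. Of 22 S phase control genes, the E2F and retinoblastoma families among them, 1 fell and 0 rose, and 21 did not pass (median -0.079). That gene was the cyclin gene Ccna2 (-0.17, edgeR adjusted p = 0.049), whose call ended on leaving out any library except cKO replicate 1 and with no filter on low counts (adjusted p up to 0.213). Of 20 mitotic genes 2 fell and 0 rose, and 18 did not pass (median -0.087). Their values were below 0 in 16 and above 0 in 4, Mki67 (0.012) and Cdk1 (0.015) among the latter. Over all genes tested 48.3% were below 0. The centromere protein gene Cenpf (-0.28) held its call in 14 of 14 alternatives, and the cyclin gene Ccnb1 (-0.40) lost it without WT replicate 3 (0.0537). The difference between these lists and the 42 members was not tested.

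**Figure D4:**
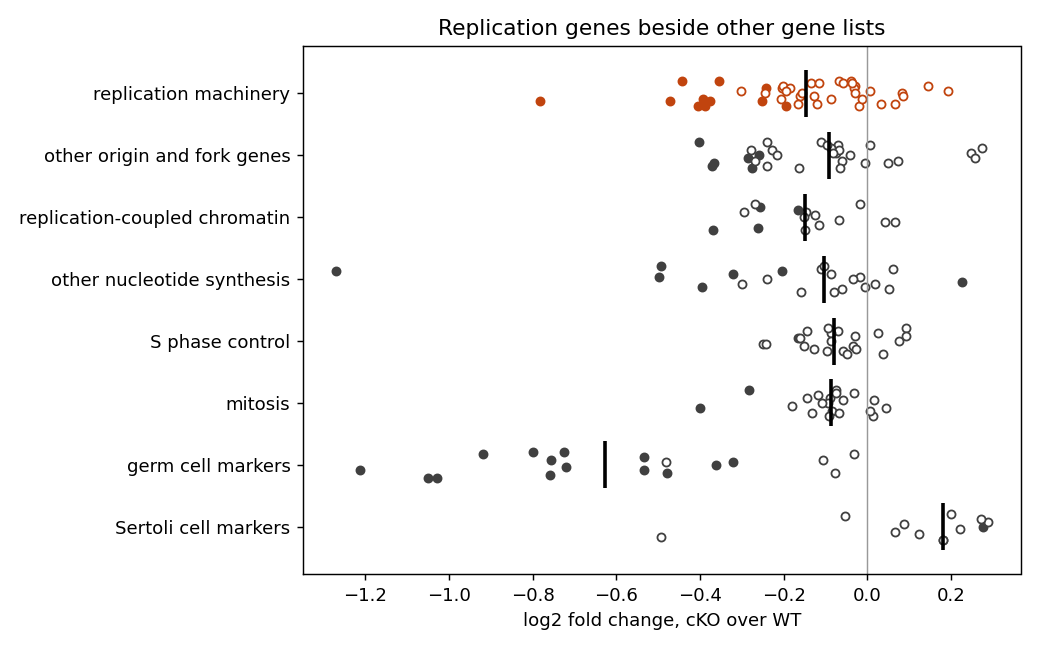
Log2 fold change of cKO over WT for the 42 replication genes (top row) and the genes of 7 other lists, 1 point per gene, filled where past the threshold, with a black bar at each median. The replication genes have a median of -0.15, the germ cell markers one of -0.63 and the Sertoli cell markers one of 0.18.

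The other cell type lists went in both directions, while 4.94% of all genes tested were called lower and 3.4% higher. Of 8 Leydig cell markers 3 rose (Cyp17a1, Lhcgr and Star, median of the list 0.16) and of 8 macrophage markers 4 rose (Mrc1, Lyz2, Ptprc and Csf1r, median of the list 0.35). Of 8 endothelial markers Pecam1 rose (median of the list 0.070), and of 8 interstitial stroma markers Col1a2 and Col3a1 fell (median of the list -0.12). Of 7 peritubular myoid markers 0 passed in edgeR, with 2 at an unadjusted p under 0.05 (median of the list -0.050). Of 5 red blood cell markers tested 0 passed and 0 were under that limit (median of the list 0.026). The calls of the macrophage, endothelial and stroma genes were lost without WT replicate 2, with adjusted p from 0.0649 to 0.204, and all but that of Pecam1 also without at least 2 other libraries.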

How the data were processed

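Per the labels' protocols, RNA came from whole testes, and stranded libraries were primed at random and at poly(A) tails, with unwanted transcripts depleted, while the molecule field names polyA RNA. The authors deposited unnormalized counts for each gene, made with featureCounts 1.6.4 on GENCODE M18 gene models, stranded, per the file headers. The submitters' processing notes name cutadapt, HISAT2 and GRCm38.p5. The deposited table also gives each gene's exonic length, which was used for RPKM. Under the featureCounts defaults, reads over several genes or places are not counted, and the header's command sets no other option. Symbols came from GENCODE M21 (54165 of 54232 genes).

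After filterByExpr (at least 10 counts in enough samples, 15 in total) and TMM scaling, genes were tested with the edgeR 4.0.16 quasi-likelihood test (R 4.3.3, a term for group, two-sided, Benjamini-Hochberg over 20153 genes). Fold changes set cKO over WT, CPM and RPKM use TMM-scaled library sizes, and intervals are 95% intervals of the fit. DESeq2 1.42.0 and limma-voom (limma 3.58.1) were alternatives, with the others named in the closing section. The script was tested on simulated data. Values are given in full for members past the threshold and the gene with the highest RPKM of each role, and from each other list for up to 4 genes past the threshold with the lowest p. Cdt1, Mcm5, Mcm10, Gins4, Prim2 and Rrm2 were given in full after their values were seen. The members and lists were chosen with earlier results of these data known. Near-identical copies (at least 95% identity over 30% of the transcript) were sought with minimap2. Same-strand overlap with other genes was at most 8.504% of a member's exonic bases. The lowest count of a member in a library was 340, and the part of counting in the spread was not separated. Python 3.11.15 with matplotlib 3.10.9 drew the figures.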

Additional observations from a re-analysis of the deposited data

How the results depend on the processing

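Counts of members called lower were 15 in DESeq2, 12 in limma-voom and in the robust fit, 16 with library size alone as the scaling, 11 with DESeq2 size factors, 14 with no filter, and 13 with at least 1 CPM in 3 samples; 0 were called higher in each of these. At an unadjusted p under 0.05, 20 were lower and 1 higher, among 4699 genes in all. With single libraries left out, 4 to 14 members were called lower, 623 to 3375 genes in all, and the median of the members ran from -0.18 to -0.13 and that of the licensing genes from -0.24 to -0.14. Without the 2 members in the chromosome 8 segment 10 were called lower, with a median of -0.13, and the helicase median was -0.059. With the replicate number as a block 13 members were called lower and 1798 genes in all. This block ended no call of a named gene. Deviations from the group means correlated at 0.013 to 0.065 between same-numbered libraries and at -0.054 to 0.023 between differently numbered ones. These values were small and the labels name no pairing, so the numbers were not taken as pairs. Whether they mark pairs was not tested. The E2F-type share was 26.5% in the 200 bases before the start. Values of these genes that did not pass changed sign with single libraries left out, over ranges of -0.024 to 0.033 (Orc5), -0.096 to 0.046 (Mcm2), -0.080 to 0.014 (Mcm7), -0.021 to 0.0997 (Gins3), -0.060 to 0.032 (Pola2), -0.060 to 0.0097 (Prim1), -0.098 to 0.0063 (Pole2), -0.074 to 0.031 (Pcna), -0.038 to 0.017 (Rpa1) and -0.058 to 0.013 (Dis3l2). Orc5 was also at -0.014 with library size alone and -0.0040 with no filter. The cause of these changes was not tested, beyond the fewer samples.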
